A study of Mus musculus with 46 samples.

Results

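Liver and kidney were compared in p150-positive mice by RNA sequencing, with 7 liver libraries set against 7 kidney libraries, which are 14 of the 46 libraries of a series on liver, kidney and cerebellum of 16 mice. The animals were C57BL/6 mice at postnatal day 23, labelled P195A/p150+. P195A is a change in the domain of the RNA-editing enzyme ADAR1 with which it binds Z-form nucleic acid, a left-handed helix, and p150 is the interferon-inducible isoform that holds this domain. Livers and kidneys here all came from animals with P195A, so no library stands for mice without that change, and in the series these animals are the controls of animals labelled p150-. The labels give no sex. Members were chosen by genotype and tissue label: the livers came from animals 4, 6, 7, 10, 12, 13 and 15 and the kidneys from animals 4, 5, 6, 7, 10, 13 and 15, so that 6 of 8 p150-positive animals gave both. A kidney library of animal 12 was left out, because it held 2.78 CPM (counts per 1000000 counts) of the 4 kidney identity genes and 16520 CPM of 8 small intestine genes.

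As background, hepatocytes make most proteins of blood plasma, form urea and bile acids, store glycogen, synthesise cholesterol and convert drugs with cytochrome P450 and conjugating enzymes. The kidney filters plasma in glomeruli and recovers solutes along the nephron: the proximal tubule takes back glucose, amino acids, phosphate and filtered protein, the loop of Henle builds the salt gradient, and the distal tubule and collecting duct adjust salt, potassium, acid and water. Both organs make glucose, burn fatty acids and carry interferon and complement genes.

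Values are CPM on library sizes scaled by TMM (trimmed mean of M-values). Those of the left-out kidney library of animal 12 are on its total counts without scaling. Where 3 values are given for a tissue they are the lowest, the median and the highest of its 7 libraries. Log2 fold changes are liver over kidney with their standard error (SE), from edgeR's quasi-likelihood test with Benjamini-Hochberg adjustment over all genes tested. A gene is called higher or lower in liver at an adjusted p under 0.05 with a log2 fold change of at least 1 or at most -1. It is called similar where the 95% interval of the log2 fold change lies within -1 to 1, and otherwise it is undecided. In bulk tissue, fewer cells of a type and less RNA per cell cannot be told apart.

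The tissue labels held in the 14 libraries. Summed over 4 genes each (Alb, Apoa1, Serpina1c and Cps1 for liver and Umod, Slc34a1, Kap and Aqp2 for kidney), liver identity was 57610 to 98710 CPM in livers and 7.54 to 421 CPM in kidneys. Kidney identity was 0 to 5.78 CPM in livers and 8039 to 10960 CPM in kidneys. Library totals were 1682418 to 4304331 counts in livers and 1298927 to 4875907 counts in kidneys. A pair of libraries stood apart from the others of their tissue. Over genes of at least 50 CPM, deviations from the tissue median had an SD of 0.982 (log2) in the liver of animal 13, against 0.28 to 0.531 in the other livers, and of 0.834 in the kidney of animal 5, against 0.21 to 0.349 in the other kidneys. Across genes, those deviations had a Spearman correlation with exon length of -0.342 in the liver of animal 15 and -0.169 in that of animal 13, against -0.006 to 0.205 in the other livers (3453 genes), and of -0.299 in the kidney of animal 5, against -0.144 to 0.224 in the other kidneys (3141 genes). Its part in the results was not tested. The kidney of animal 5 had the fewest counts and detected 12055 genes, against 16998 to 18719 in the others.

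Of 11286 genes tested, 1775 (15.7%) were higher and 2006 (17.8%) were lower in liver, 3350 (29.7%) were similar and 4155 were undecided. The counts of list members given below are to be read beside these shares. In the 6 animals with both tissues, 1607 of the higher and 1897 of the lower genes differed the same way in every animal. For 2895 genes (25.7%) the livers and kidneys did not overlap, among them 1269 of the higher and 1355 of the lower calls. An at least 8-fold difference (log2 of 3 or more) was found for 626 higher and 753 lower genes. No count fell in any liver for 162 of the lower genes and in any kidney for 31 of the higher ones. Without the liver of animal 13 and the kidney of animal 5, 1814 genes were higher, 2481 lower and 4328 similar, and no gene called with all libraries took the opposite call. The balance of directions depended on the scaling. A few genes fill a large share of the liver libraries (11.3 to 15.6% of counts in the top 10 genes, against 5.32 to 7.95% in kidneys). On library totals alone the median log2 fold change of all genes was -0.82, against 0.01 with TMM, with 1002 genes higher, 4527 lower and 1828 similar, so that 18.1% of calls were higher in place of 46.9%. With upper quartile scaling the median was -0.18.

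**Figure D1:**
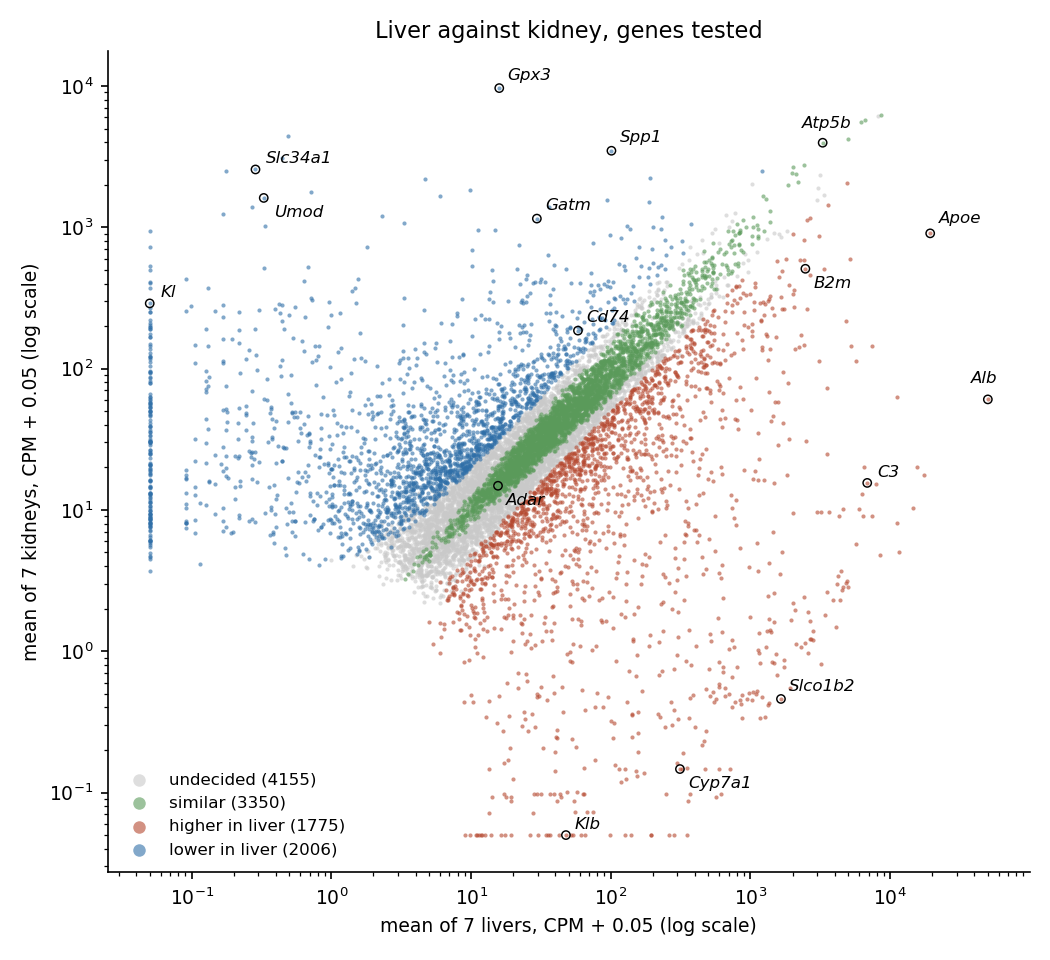
Mean CPM of each tested gene in 7 livers (horizontal) and 7 kidneys (vertical), both on log scales after adding 0.05, coloured by the result of the test. Alb and C3 lie far to the liver side, Gpx3 and Slc34a1 far to the kidney side, genes in the columns and rows at the edges have 0 counts in a tissue, and Adar and Atp5b lie within the band of similar genes; on library totals alone the band shifts by -0.82 on the log2 scale.

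All 24 genes of the plasma protein and coagulation list were higher in liver, with a median log2 fold change of 9.93, against 15.7% of all genes tested. Alb encodes albumin, the main carrier protein of plasma. It had 39389.5, 43569.5 and 66559 CPM in livers, against 3.36, 7.6015 and 319.6 CPM in kidneys (log2 fold change 9.70, SE 1.15, adjusted p = 1.03e-06). Every liver lay above every kidney for Alb. The highest kidney value was that of animal 10, and the other kidneys had 3.36 to 44.2 CPM. Summed over the 24 genes, that kidney held 1177 CPM, or 0.681% of the median liver sum, where the other kidneys held 195.3 to 443 CPM, and 23 of the 24 genes were highest in it. Without it, all 24 genes were again higher in liver and their median log2 fold change was 10.8.

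Apolipoproteins among the most abundant liver genes were Apoe, Apoa1 and Apoa2, of which Apoe is not in the list of 24 genes. Apoe, a ligand for lipoprotein uptake, had 14857, 19635 and 22273 CPM in livers, against 803, 894 and 1089 CPM in kidneys (log2 fold change 4.42, SE 0.28, adjusted p = 1.85e-10). Apoa1, the main protein of high density lipoprotein, had 11766, 14450.1 and 23595 CPM in livers, against 1.56, 13.5 and 78.5 CPM in kidneys. Apoa2, its companion, had 5479.8 to 16134 CPM in livers, against 3.90 to 44.0 CPM in kidneys. For each of these 3 genes every liver was above every kidney.

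The scavenger and clotting proteins had the same order. Hpx, which binds free heme, averaged 11588 ± 3186 CPM in livers and 4.97 ± 8.77 CPM in kidneys (SD, n = 7 each), with an adjusted p of 4.47e-09. Ahsg, an inhibitor of calcification, averaged 17357 ± 2151 CPM in livers and 17.7 ± 29.6 CPM in kidneys. Fga and Fgb, the alpha and beta chains of fibrinogen, had log2 fold changes of 8.33 (SE 0.41) and 10.45 (SE 0.91). Kng1, the precursor of bradykinin, had 5251 to 7607 CPM in livers, against 2.34 to 24.0 CPM in kidneys. Ttr, a carrier of thyroid hormone and retinol-binding protein, had the smallest difference of the list, with 5158, 6208 and 15188 CPM in livers, against 85.0, 127 and 274 CPM in kidneys (log2 fold change 5.68, SE 0.40). Serpina3k, a serine protease inhibitor, had 6402 to 24119.5 CPM in livers, against 0 to 61.9 CPM in kidneys; it belongs to a family of near-identical genes whose counts may be shared.

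On the kidney side the most abundant gene of the named set was Gpx3, the glutathione peroxidase that the kidney secretes into plasma. It had 8.16, 17.3 and 19.4 CPM in livers, against 6649.5, 10202 and 11392 CPM in kidneys (log2 fold change -9.25, SE 0.35, adjusted p = 3.59e-13). Kap, an androgen-regulated protein of the mouse proximal tubule, had 0 to 2.48 CPM in livers, against 2748 to 6985 CPM in kidneys (adjusted p = 1.76e-12). Klk1, tissue kallikrein, which releases kinins from the kininogen that Kng1 encodes, had 0 to 2.48 CPM in livers, against 2236 to 4143 CPM in kidneys (log2 fold change -13.36, SE 0.53). No liver reached 3 CPM for Kap or Klk1, and no kidney was below 2236 CPM for either.

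Other abundant kidney genes were also lower in liver, and those given here except Napsa and Cdh16 were detected in every liver. Spp1, osteopontin, a phosphoprotein found in urine, had 60.7, 97.9 and 154 CPM in livers, against 2874, 3632 and 3834 CPM in kidneys (log2 fold change -5.10, SE 0.27). Miox, the enzyme that starts the breakdown of inositol, had 2.04 to 7.42 CPM in livers, against 1664 to 2920.1 CPM in kidneys. Aadat, an aminotransferase of lysine and kynurenine, had 153 to 244 CPM in livers, against 1579 to 3383 CPM in kidneys. Cd63, Igfbp7 and Ly6a, a tetraspanin of late endosomes, an insulin-like growth factor binding protein and a surface protein induced by interferon, had log2 fold changes of -4.05 (SE 0.31), -3.0 (SE 0.17) and -5.26 (SE 0.41). Napsa, an aspartic protease of the proximal tubule, and Cdh16, a cadherin of tubule epithelium, had 0 to 1.62 and 0 to 0.826 CPM in livers, against 1295 to 2177 and 913 to 1600.0 CPM in kidneys.

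Of 100 tested genes in 5 transport lists, 25 were higher and 62 lower in liver and 6 were similar. Of 12 hepatocyte uptake transporters, 11 were higher and 1 was undecided, with a list median of 5.73 (9 higher on library totals alone). Slco1b2 takes organic anions and bile acids from blood. It had 1048, 1526 and 2453 CPM in livers, against 0, 0 and 2.71 CPM in kidneys (log2 fold change 12.08, SE 0.64, adjusted p = 1.85e-11). Slc10a1, the sodium-dependent bile acid importer NTCP, had 1155, 1662 and 1728 CPM in livers, against 15.3, 32.3 and 38.7 CPM in kidneys (log2 fold change 5.78, SE 0.26). Its ileal and renal relative Slc10a2 was undecided at 0.388 to 9.78 CPM in livers and 1.04 to 6.44 CPM in kidneys. The amino acid importers Slc38a4 and Slc7a2 were higher in liver, by 8.23 (SE 0.45) and 5.68 (SE 0.38) on the log2 scale.

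Pumps that move bile constituents out of the hepatocyte were higher in liver for 9 of 13 tested genes, 3 were lower and 1 was similar. On library totals alone 7 were higher and 4 lower. Abcb11, the bile salt export pump, had 328, 483 and 671 CPM in livers, against 0, 0 and 0.677 CPM in kidneys (log2 fold change 10.82, SE 0.44, adjusted p = 8.75e-13). Abcb4, which moves phosphatidylcholine, and Abcg5 and Abcg8, which together move sterols, had log2 fold changes of 8.42 (SE 0.55), 7.31 (SE 0.38) and 7.99 (SE 0.53). The 3 lower genes were Abcg2 and the subunits of the basolateral bile acid exporter, Slc51a and Slc51b. Abcg2, a pump of urate and many drugs, had 73.8, 99.4 and 197 CPM in livers, against 459, 529.6 and 679 CPM in kidneys (log2 fold change -2.26, SE 0.21). Slc51a had 1 count in all livers and 1742 in all kidneys. Slc47a1, which exports organic cations, was similar at 129 to 197 CPM in livers and 141 to 324 CPM in kidneys (log2 fold change -0.52, interval -0.93 to -0.12), but lower in liver on library totals alone.

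Of 33 tested proximal tubule transporters, 29 were lower in liver, against 17.8% of all genes, with a list median of -9.79, or -8.49 with genes at 0 in liver set to the bound of 3 counts over the group. Slc34a1 recovers phosphate from the filtrate. It had 0, 0 and 1.65 CPM in livers, against 1751, 2586 and 3322 CPM in kidneys, and the kidney to liver ratio on scaled totals was 21300, counting interval 5890 to 176000 (adjusted p = 3.59e-13). Only 2 counts fell in the 7 livers together. Slc5a2, the sodium-glucose carrier SGLT2, had no count in any liver and 156, 376 and 605 CPM in kidneys, so it was at least 2181-fold lower in liver. Lrp2, megalin, which takes up filtered protein with cubilin, was at least 2683-fold lower in liver, with 417 to 623 CPM in kidneys. Cubn, cubilin, had 83.7 to 158 CPM in kidneys and 1 count in all livers. These carriers were near or at 0 in every liver.

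Carriers of organic ions and amino acids in the proximal tubule were likewise lower in liver. Slc22a6 and Slc22a8, the basolateral importers of organic anions OAT1 and OAT3, had 0 to 0.826 and 0 to 1.17 CPM in livers, against 87.7 to 319 and 105 to 347 CPM in kidneys. Slc22a2, an importer of organic cations, had 1 count in livers and 74.3 to 202 CPM in kidneys, and Slc1a1, an acidic amino acid carrier, 1 count in livers and 70.7 to 125 CPM in kidneys. A relative of the anion importers, Slc22a7, was higher in liver, with 52.5, 138 and 288 CPM in livers, against 7.03, 25.3 and 60.1 CPM in kidneys (log2 fold change 2.45, SE 0.47, adjusted p = 2.43e-04), and its groups overlapped. Slc26a1, which exchanges sulfate and oxalate, was the 1 member of the proximal tubule list that was higher in liver, at 81.1, 473 and 556 CPM in livers, against 5.27, 81.2 and 118 CPM in kidneys (log2 fold change 2.41, SE 0.47). Slc17a3, a urate and phosphate carrier, and Slc23a1, a vitamin C carrier, were undecided, with log2 intervals of -1.34 to -0.58 and -1.32 to -0.34. Slc17a3 was called lower without the liver of animal 13 and in 6 other of 27 alternative settings.

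All 24 tested transporters of the loop of Henle to the collecting duct were lower in liver, with a list median of -10.5, or -9.22 at the bound. Slc12a1, the furosemide-sensitive salt carrier of the thick ascending limb, had no count in livers and 531, 933 and 1465 CPM in kidneys, at least 5072-fold lower in liver. Aqp2, the vasopressin-regulated water channel of the collecting duct, was at least 4024-fold lower in liver, at 296 to 1104 CPM in kidneys. Kcnj1, the potassium channel ROMK, had 3 counts in livers and 181 to 699.7 CPM in kidneys. Fxyd2, a small regulator of the sodium pump, had 0, 0 and 0.875 CPM in livers, against 2022, 2408 and 3696 CPM in kidneys, a kidney to liver ratio of 12400, counting interval 4250 to 60300. Cldn10, a tight junction protein that lets sodium pass, had 1 count in livers and 324 to 532 CPM in kidneys. Kcnj16, a basolateral potassium channel, had a log2 fold change of -9.30 (SE 0.48).

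The general transporters of both tissues divided into 4 higher, 6 lower and 5 similar of 18, and into 1, 11 and 1 on library totals alone. Over all genes tested, 15.7% were higher, 17.8% lower and 29.7% similar, so the similar share of this list was near that of all genes. The iron carriers Slc39a14 and Slc40a1 (ferroportin) were higher in liver, with log2 fold changes of 3.66 (SE 0.31) and 1.52 (SE 0.16), and on library totals alone Slc40a1 was not called. Slc40a1 is also abundant in Kupffer cells, the resident macrophages of liver. Atp1b1, the beta subunit of the sodium pump, was lower in liver, with 54.9, 67.6 and 101 CPM in livers, against 552, 857 and 886 CPM in kidneys (log2 fold change -3.39, SE 0.20, adjusted p = 9.15e-11). Among the similar genes were Slc25a5, the mitochondrial ADP/ATP carrier (982 to 1464 CPM in livers, 1449 to 1822 CPM in kidneys), Slc25a3, the mitochondrial phosphate carrier (log2 interval -0.83 to -0.22), and Slc11a2, an iron importer (log2 interval -0.98 to 0.08). Slc25a5, Slc25a3 and Slc11a2 were called lower in liver on library totals alone.

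**Figure D2:**
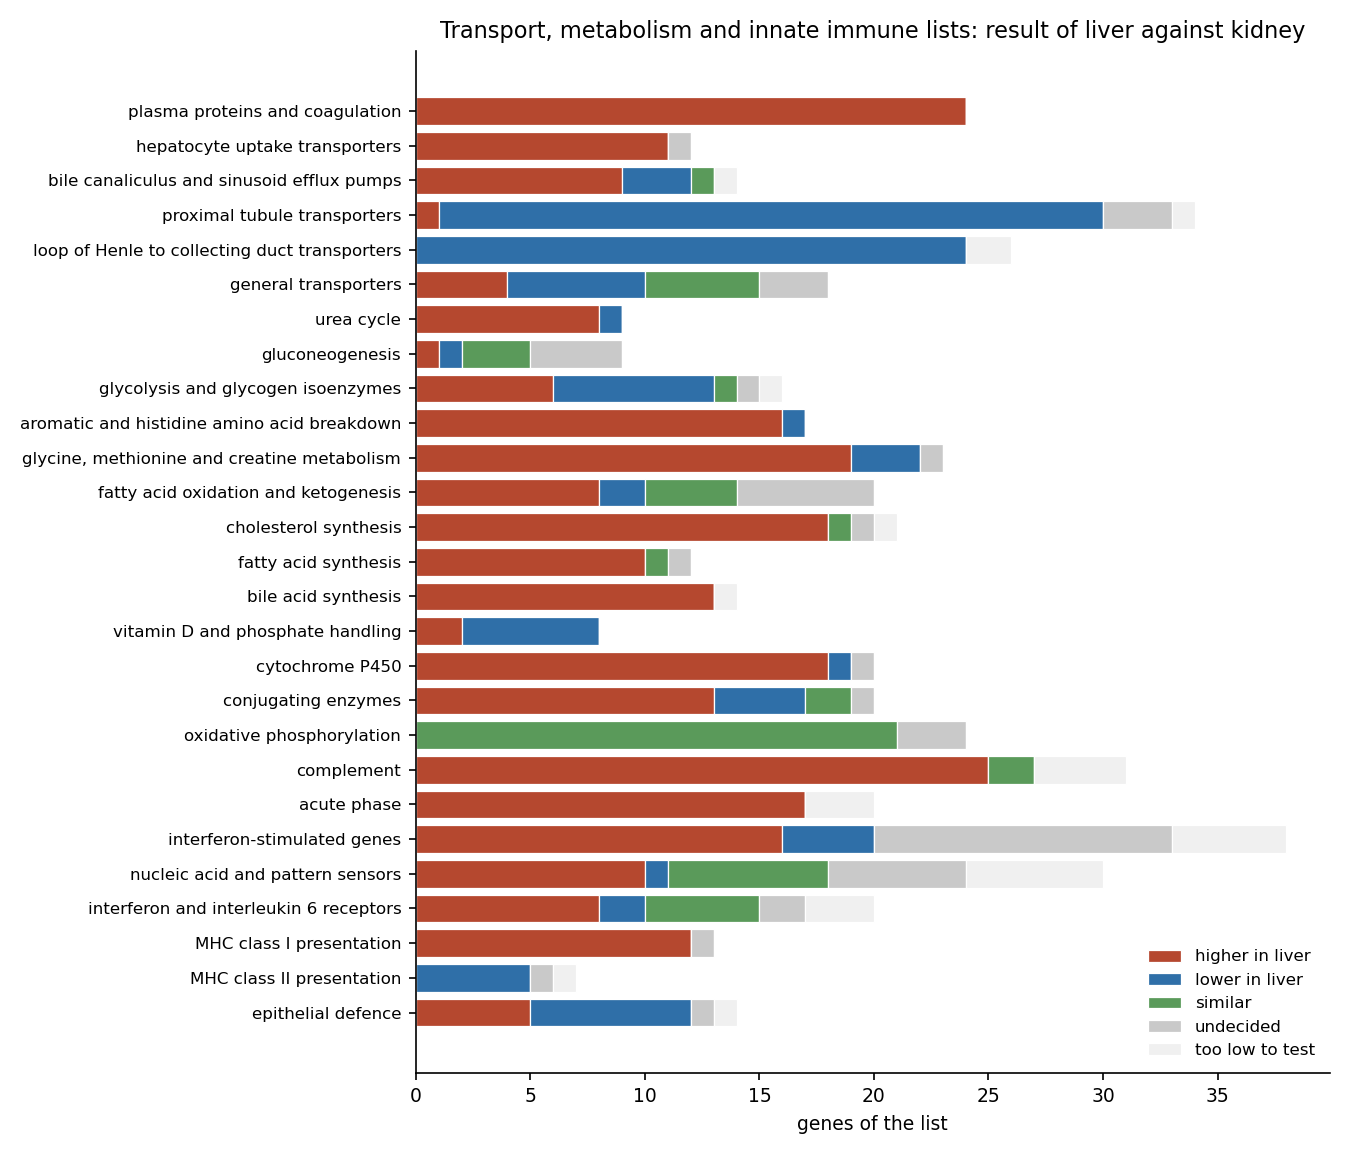
Number of genes of each list that were higher in liver, lower in liver, similar, undecided or too low to test; the horizontal axis counts genes. All 24 plasma protein genes were higher, all 24 tested loop of Henle to collecting duct transporters were lower, and 21 of 24 oxidative phosphorylation genes were similar, of which 1 stayed similar and 12 of the list were lower on library totals alone.

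Nitrogen disposal was higher in liver for 8 of 9 urea cycle genes, and the exception was the mitochondrial arginase Arg2. Cps1, which fixes ammonia in the first step, had 3392, 5237 and 6543 CPM in livers, against 0, 0 and 18.9 CPM in kidneys (log2 fold change 10.89, SE 1.08, adjusted p = 8.65e-08). Otc, the second enzyme, had 1011 to 1560.2 CPM in livers, against 0 to 1.69 CPM in kidneys (log2 fold change 11.93, SE 0.51). Ass1 and Asl, the enzymes that also make arginine in the kidney, had smaller differences and a measured kidney level. Ass1 had 323, 397 and 757 CPM in livers, against 71.5, 98.4 and 142 CPM in kidneys (log2 fold change 2.18, SE 0.22), and Asl had 639, 1023 and 1087 CPM in livers, against 114, 169 and 311 CPM in kidneys (log2 fold change 2.29, SE 0.24). Nags, which makes the activator of CPS1, had 81.1 to 144 CPM in livers and 2 counts in all kidneys. DESeq2 did not call Cps1 (log2 fold change 3.93, adjusted p = 0.133) or Arg1 (log2 fold change 3.90, adjusted p = 0.0627). For both genes these estimates are smaller than the gap between the lowest liver and the highest kidney, 3392 and 18.9 CPM for Cps1. They therefore do not describe the tissue difference, and whether these DESeq2 fits converged was not checked. The kidney counts of both genes came mainly from animal 10.

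Pairs of related genes were chosen with earlier results known and written with the liver form first, so their count is a description. The first was higher and the second lower in liver in 14 of 22. The cytosolic arginase Arg1 had 2796, 3514 and 4373 CPM in livers, against 0, 0.917 and 14.9 CPM in kidneys (log2 fold change 10.47, SE 0.88), and Arg2 had 0, 0 and 2.28 CPM in livers, against 28.7, 45.5 and 59.9 CPM in kidneys (log2 fold change -6.54, SE 0.53). Per kilobase of exon, livers averaged 1572 CPM of Arg1 and 0.341 CPM of Arg2, and kidneys 1.16 and 31.6 CPM. The general hexokinase Hk1 had 0, 9.08 and 15.7 CPM in livers, against 71.0, 128 and 183 CPM in kidneys (log2 fold change -3.86, SE 0.50). The pyruvate kinases Pklr and Pkm differed by 3.60 (SE 0.55) and -2.95 (SE 0.27), and the groups overlapped for Pklr.

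The glycogen synthases Gys2 and Gys1 differed by 5.75 (SE 0.37) and -3.46 (SE 0.43). Of the lactate dehydrogenases, Ldhb, the form of oxidative tissue, had 1.55, 5.41 and 10.7 CPM in livers, against 1377, 1568 and 1903 CPM in kidneys (log2 fold change -8.16, SE 0.40, adjusted p = 8.64e-12). Ldha had 1704, 2627 and 3295 CPM in livers, against 671, 1124 and 1407 CPM in kidneys (log2 fold change 1.19, SE 0.22), a call that was lost in 4 of 27 alternative settings, library totals among them. In kidneys the level per kilobase was 338 CPM for Ldha and 1059.8 CPM for Ldhb. The glucose carriers Slc2a2 and Slc2a1 differed by 1.85 (SE 0.29) and -1.78 (SE 0.25). Pygl, the liver glycogen phosphorylase, was higher (3.88 ± 0.19, log2 ± SE), and the brain form Pygb was undecided (log2 interval -1.50 to 0.22) but lower with the animal as a block (log2 fold change -1.04, adjusted p = 0.00449).

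**Figure D3:**
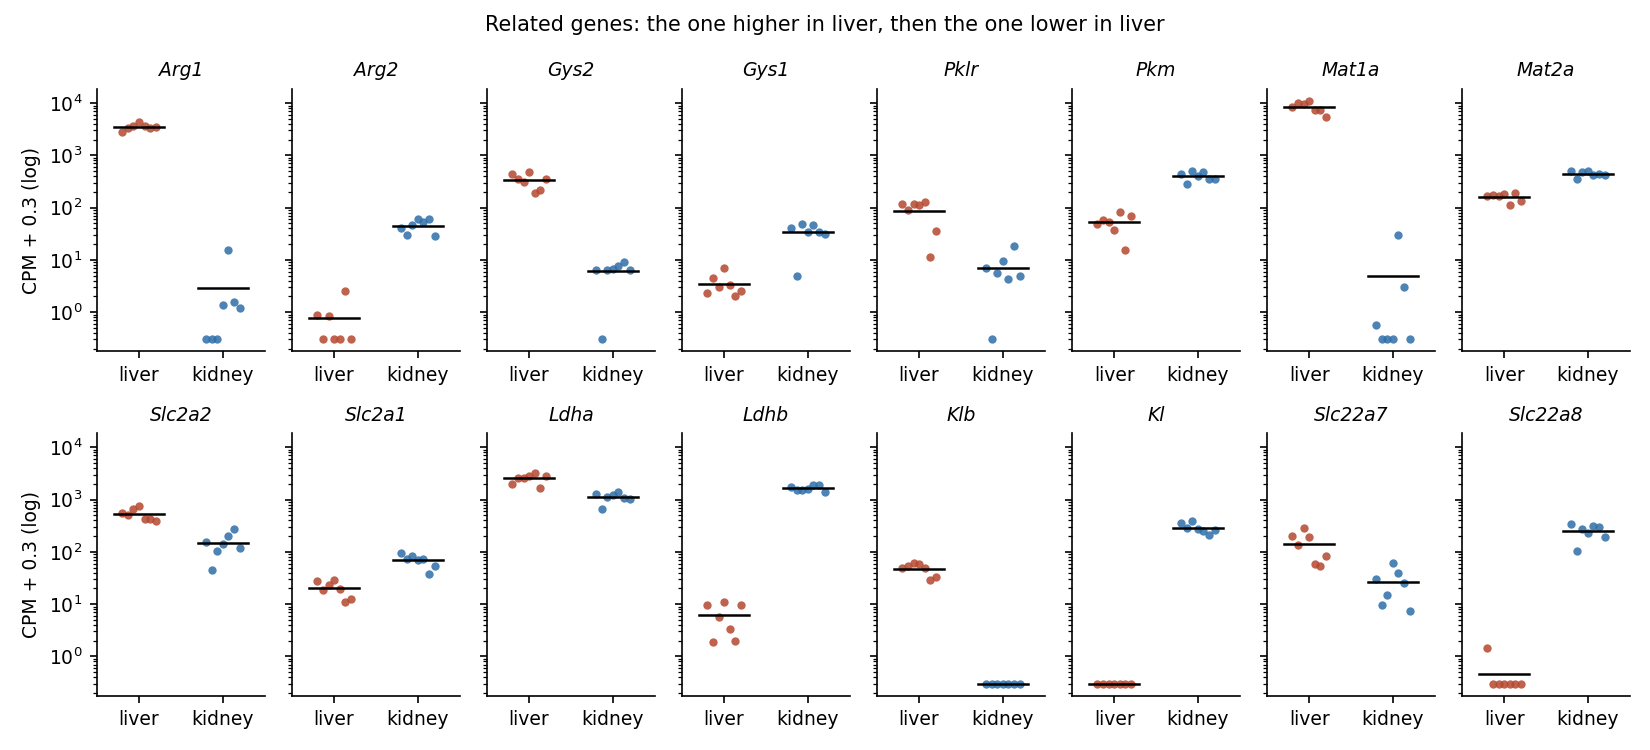
CPM in each library (points; log axis after adding 0.3) and tissue mean (line) for 8 pairs of related genes, livers on the left and kidneys on the right of each panel. In each pair the first gene is higher and the second lower in liver; Klb had 0 counts in every kidney and Kl 0 counts in every liver.

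Of 9 gluconeogenesis genes, 1 was higher, 1 lower, 3 similar (against 29.7% of all genes) and 4 undecided. With the animal as a block 2 were higher and 2 lower, without the liver of animal 13 3 were higher and 1 lower, and on library totals alone 2 were lower and 5 similar. The glycolytic aldolase Aldoa was lower in liver, at 163 to 323 CPM in livers, against 803 to 1173 CPM in kidneys (log2 fold change -2.09, SE 0.18). Slc37a4, the glucose 6-phosphate carrier, and Gpi1 were similar, with intervals of -0.04 to 0.82 and -0.39 to 0.40. Fbp1, fructose bisphosphatase, was higher in liver, at 1925, 2573 and 3431 CPM in livers, against 723, 1128 and 1479 CPM in kidneys (log2 fold change 1.21, SE 0.22, adjusted p = 1.37e-04), but was not called on library totals alone. Ppargc1a, a coactivator of mitochondrial and gluconeogenic genes, was lower, at 22.2 to 61.1 CPM in livers, against 110.0 to 172 CPM in kidneys (log2 fold change -1.73, SE 0.20).

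Pck1, the cytosolic enzyme that commits carbon to glucose, stood at the threshold, with 1448, 3491 and 4950.3 CPM in livers, against 389, 1933 and 2425 CPM in kidneys (log2 fold change 0.996, SE 0.35, adjusted p = 0.0249). It was called higher in 12 of 27 alternative settings, among them the 6 animals with both tissues, with the animal as a block (log2 fold change 1.23, adjusted p = 0.0262) and without (log2 fold change 1.09, adjusted p = 0.0276). The mitochondrial form Pck2 was undecided (-0.79, SE 0.49) and lower in liver with the animal as a block (log2 fold change -1.05, adjusted p = 0.0435). G6pc, which releases free glucose, was undecided, with 260.1, 481 and 1142 CPM in livers, against 164, 307 and 758 CPM in kidneys (log2 interval -0.33 to 1.16). Pcx, pyruvate carboxylase, was called higher in 8 of 27 alternative settings. Khk, ketohexokinase, was similar (log2 interval 0.22 to 0.96), and the fructose carrier Slc2a5 was lower in liver at 1.01 to 11.4 CPM in livers, against 7.02 to 115 CPM in kidneys (log2 fold change -4.03, SE 0.52).

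Of 17 genes of aromatic and histidine breakdown, 16 were higher in liver and Acmsd was lower. On library totals alone 12 were higher, 1 lower and 3 similar. Hal, histidase, had 333, 608 and 927 CPM in livers and 2 counts in all kidneys, a liver to kidney ratio of 7780, counting interval 2150 to 64300. Tdo2, which opens the tryptophan ring, had 1959 to 3729.5 CPM in livers, against 0 to 6.43 CPM in kidneys, and Tat, tyrosine aminotransferase, 1967 to 5145 CPM in livers, against 0 to 11.5 CPM in kidneys. Amdhd1 and Ftcd, later steps of histidine breakdown, differed by 7.24 (SE 0.32) and 8.87 (SE 0.53). Acmsd, a branch point of tryptophan breakdown, had 16.6, 40.6 and 105 CPM in livers, against 49.2, 124 and 139.7 CPM in kidneys (log2 fold change -1.10, SE 0.33, adjusted p = 0.0118), and the call was lost without the liver of animal 4.

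In glycine, methionine and creatine metabolism 19 of 23 genes were higher and 3 were lower in liver (15 and 3 on library totals alone). The lower ones were Gatm, Mat2a and Dao. The enzymes of creatine synthesis were called in opposite directions. Gatm, the first enzyme, had 18.3, 32.7 and 35.7 CPM in livers, against 759, 1163 and 1409 CPM in kidneys (log2 fold change -5.28, SE 0.23, adjusted p = 2.29e-12), and Gamt, the second, had 206, 503 and 579 CPM in livers, against 13.8, 21.1 and 46.8 CPM in kidneys (log2 fold change 4.2, SE 0.31). Mat1a, which makes S-adenosylmethionine in liver, had 5355, 8389.8 and 11028 CPM in livers, against 0, 0 and 30.1 CPM in kidneys (log2 fold change 10.85, SE 1.16). Mat2a, the form of other tissues, had 114, 169 and 187 CPM in livers, against 352, 445 and 502 CPM in kidneys. DESeq2 did not call Mat1a (log2 fold change 3.95, adjusted p = 0.107). That estimate is smaller than the gap between the lowest liver and the highest kidney, and whether the fit converged was not checked. Agxt, which detoxifies glyoxylate, Bhmt, which remethylates homocysteine, and Ahcy, which removes S-adenosylhomocysteine, differed by 11.93 (SE 0.62), 9.90 (SE 0.55) and 4.02 (SE 0.24). The hydroxyacid oxidases Hao1 and Hao2 took opposite sides, at 10.73 (SE 0.63) and -1.41 (SE 0.30). Of the proline dehydrogenases, Prodh2 was higher (2.00, SE 0.23) and Prodh was undecided (0.78, SE 0.27).

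In glutamine metabolism, Gls2, the liver-type glutaminase, had 340.4, 533 and 845 CPM in livers, against 0, 0 and 3.04 CPM in kidneys (log2 fold change 10.34, SE 0.61). Slc38a3, a glutamine carrier, was higher in liver (4.67, SE 0.41). Glul, glutamine synthetase, was similar, with 49.1, 132 and 342 CPM in livers, against 91.4, 176 and 297 CPM in kidneys (log2 fold change -0.12, interval -0.84 to 0.59).

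Oxct1, which lets tissues burn ketone bodies as fuel, had 5.78, 11.3 and 32.0 CPM in livers, against 734, 1002 and 1044 CPM in kidneys (log2 fold change -6.0, SE 0.33, adjusted p = 2.87e-11). Every kidney was above every liver for Oxct1. Higher in liver were Ppara, the receptor that drives fatty acid oxidation genes (2.53, SE 0.19), and Fabp1, the liver fatty acid binding protein (8.87, SE 0.74). Slc22a5, the carnitine carrier, was lower (-3.50, SE 0.22). Of 20 genes of fatty acid oxidation and ketogenesis, 8 were higher, 2 lower and 4 similar (7, 4 and 8 on library totals alone). The similar ones included Acadl and Cpt2, which act in the mitochondrion (log2 intervals 0.03 to 0.80 and 0.07 to 0.81), and Cyp4a10, an omega-hydroxylase with near-identical relatives (-0.44 to 0.73). The medium-chain acyl-CoA synthetases Acsm1 and Acsm2 took opposite sides, at 2.14 (SE 0.25) and -8.38 (SE 0.48).

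In cholesterol synthesis 18 of 20 tested genes were higher and none lower, with a median of 3.15 (15 higher on library totals alone). In fatty acid synthesis 10 of 12 were higher and none lower, with a median of 2.31 (7 higher on library totals alone). Sc5d, a late enzyme of cholesterol synthesis, had 766, 1379.8 and 2177 CPM in livers, against 22.4, 52.9 and 62.6 CPM in kidneys (log2 fold change 4.96, SE 0.32, adjusted p = 2.52e-10). Tm7sf2, another late enzyme, and Insig1, which restrains the pathway, differed by 4.34 (SE 0.21) and 3.90 (SE 0.26). Srebf2, the transcription factor of the pathway, was similar (log2 fold change 0.31, interval -0.31 to 0.92). Hmgcs1, the cytosolic synthase, had 252, 613 and 1184 CPM in livers, against 208, 318 and 354 CPM in kidneys (log2 fold change 1.21, SE 0.32, adjusted p = 0.00411), and fell short of the fold minimum with the animal as a block (log2 fold change 0.838, adjusted p = 0.0218), without the liver of animal 12 and on library totals alone.

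Scd1, the desaturase of fatty acids, varied widely among livers, with 89.7, 1369.9 and 3273 CPM, against 25.3, 42.1 and 62.3 CPM in kidneys (log2 fold change 5.05, SE 0.54). Fasn, fatty acid synthase, Dgat2, which completes triglycerides, and Srebf1, their regulator, differed by 3.03 (SE 0.21), 3.08 (SE 0.31) and 3.60 (SE 0.43). Me1, the malic enzyme that supplies NADPH, was similar (log2 fold change -0.08, interval -0.72 to 0.55). Bile acid synthesis was higher in liver for 13 of 13 tested genes. On library totals alone 9 of them were higher and 2 similar. Cyp7a1, the rate-limiting enzyme, had 115, 269 and 499.5 CPM in livers and 2 counts in all kidneys, a liver to kidney ratio of 4090, counting interval 1130 to 33800. Cyp8b1, which sets the share of cholic acid, had 104, 323 and 721 CPM in livers and 2 counts in kidneys. Of the acyl-CoA synthetases, Slc27a5, which activates bile acids, had 1708 to 2645 CPM in livers, against 0 to 5.41 CPM in kidneys, and Slc27a2 was similar at 762 to 2091 CPM in livers and 1061 to 1951 CPM in kidneys (log2 interval -0.79 to 0.20; lower on library totals alone). Nr0b2, a repressor that bile acids induce, differed by 4.16 (SE 0.24).

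Cyp2r1, the 25-hydroxylase of vitamin D, had 28.8, 33.8 and 61.0 CPM in livers, against 0, 1.01 and 2.53 CPM in kidneys (log2 fold change 4.92, SE 0.38, adjusted p = 3.08e-09). Cyp27b1, the 1-alpha-hydroxylase that makes the hormone, had 0, 0 and 1.55 CPM in livers, against 2.75, 15.6 and 30.7 CPM in kidneys (log2 fold change -5.85, SE 0.83, adjusted p = 9.53e-06). Every kidney was above every liver for Cyp27b1, and the reverse held for Cyp2r1. Gc, the vitamin D carrier of plasma, was higher in liver (7.48, SE 0.34). The hormone's receptor Vdr had no count in livers and 82.9 to 175 CPM in kidneys, at least 660.4-fold lower in liver. Cyp24a1, which inactivates the hormone, was at least 101-fold lower in liver. Kl, klotho, the co-receptor of FGF23, was at least 1571-fold lower in liver, at 207 to 386 CPM in kidneys. Its relative Klb, the co-receptor of FGF21 and of mouse FGF15, had 29.1 to 62.2 CPM in livers and no count in kidneys, at least 435-fold higher in liver. Pth1r, the parathyroid hormone receptor, was lower in liver (-3.71, SE 0.29).

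Cytochrome P450 genes were higher in liver for 18 of 20 and conjugating enzymes for 13 of 20. Cyp3a11, a drug-metabolising enzyme, had 2484, 7332 and 10767 CPM in livers, against 0, 1.79 and 38.9 CPM in kidneys (log2 fold change 9.71, SE 1.05). Cyp2c70, which makes muricholic acids in the mouse, had 1329 to 2452 CPM in livers, against 0 to 2.71 CPM in kidneys, and Cyp1a2, a caffeine oxidase, 274 to 1262 CPM in livers, against 0 to 2.37 CPM in kidneys. Cyp2c29 and Cyp2c37 differed by 11.48 (SE 0.67) and 10.79 (SE 0.53), with reads that near-identical Cyp2c genes may share. Cyp4b1 was called lower, at 15.4, 30.0 and 47.4 CPM in livers, against 34.5, 43.1 and 252 CPM in kidneys (log2 fold change -1.19, SE 0.43, adjusted p = 0.0298). That call was lost in 9 of 27 alternative settings, among them the 6 animals with both tissues, with the animal as a block (log2 fold change -0.62, adjusted p = 0.29) and without (log2 fold change -1.12, adjusted p = 0.0602), and the kidney of animal 13 left out, and the highest kidney was that of animal 13 at 252 CPM, where the others had 34.5 to 82.5 CPM.

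Among conjugating enzymes Ugt2b36 and Ugt2b5, which add glucuronic acid, differed by 12.09 (SE 0.52) and 9.66 (SE 0.40), and Sult1a1, a phenol sulfotransferase, by 4.29 (SE 0.23). Lower in liver were the sulfotransferases Sult1d1 (129.8 to 323 CPM in livers, 409 to 1045 CPM in kidneys) and Sult1c2 (9.73 to 43.7 CPM in livers, 79.6 to 155 CPM in kidneys), Nat8, which acetylates cysteine conjugates (-3.83, SE 0.80), and Ugt3a1, which uses N-acetylglucosamine (-1.57, SE 0.43), in contrast to Ugt2b1 (10.32, SE 0.70). Glyat, which joins glycine to acids, and Fmo1, a flavin monooxygenase, were similar (log2 intervals 0.03 to 0.73 and -0.31 to 0.50).

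Of 24 oxidative phosphorylation genes, 21 were similar and 3 undecided, against 29.7% similar of all genes, with a median log2 fold change of -0.18. On library totals alone 12 were lower and 1 was similar, and the list median of -1.01 there compares with -0.82 for all genes. Atp5b, the catalytic subunit of ATP synthase, had 1973, 3435 and 4116 CPM in livers, against 2818, 4059 and 4750.4 CPM in kidneys (log2 fold change -0.27, interval -0.74 to 0.20). Atp5a1 and Sdha, subunits of ATP synthase and of complex II, had intervals of -0.71 to 0.12 and -0.72 to 0.36. Summed over the list, livers held 15615 to 18809 CPM and kidneys 16178 to 22675 CPM.

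Of 21 tested endocrine genes, 14 were higher and 6 lower in liver (9 and 7 on library totals alone). Agt, angiotensinogen, had 1615, 2124 and 2581 CPM in livers, against 81.6, 145 and 177 CPM in kidneys (log2 fold change 3.92, SE 0.22, adjusted p = 5.42e-11). Ren1, renin, which cleaves it, had 0, 0 and 1.80 CPM in livers, against 62.6, 92.8 and 168 CPM in kidneys (log2 fold change -8.18, SE 0.52, adjusted p = 2.28e-10). Hsd11b1, which activates glucocorticoid, was higher in liver (3.18, SE 0.18), and Hsd11b2, which inactivates it and so spares the mineralocorticoid receptor, was at least 503-fold lower. Igf1, the growth factor that growth hormone induces, had 1239, 1414 and 3392 CPM in livers, against 28.7, 35.9 and 77.3 CPM in kidneys (log2 fold change 5.37, SE 0.32); Egf, epidermal growth factor, had 0, 1.17 and 5.40 CPM in livers, against 307, 773 and 1086 CPM in kidneys (log2 fold change -8.61, SE 0.58). Gcgr, the glucagon receptor, was higher in liver (3.06, SE 0.20).

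Of 24 tested transcription factors, 12 were higher, 11 lower and 1 was similar, with a median of 0.58. Another 6 of the 30 on the list were too low to test, and the balance depended on which passed the filter. With the animal as a block 27 were tested, 12 higher and 14 lower in liver, with a median of -2.5. Without the liver of animal 13 the split was also 12 and 14. Without the kidney of animal 10 it was 13 higher and 11 lower in liver of 25 tested. Hnf4a, a nuclear receptor of liver and proximal tubule, was found in both, with 248, 362 and 428 CPM in livers, against 39.8, 168 and 193 CPM in kidneys (log2 fold change 1.27, SE 0.26, adjusted p = 5.18e-04; not called on library totals alone). Foxa3, a pioneer factor, had 109.7, 155 and 198 CPM in livers and 2 counts in kidneys, and Cebpa, Nr1i2 (the pregnane X receptor) and Rxra differed by 4.11 (SE 0.34), 3.60 (SE 0.33) and 2.60 (SE 0.20). Pax8 and Hoxd8, factors of kidney development, had no count in livers and were at least 326-fold and 512-fold lower in liver. Tfcp2l1, a factor of the collecting duct, and Esrrg, an orphan receptor of oxidative tubules, differed by -4.77 (SE 0.30) and -4.44 (SE 0.30).

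The letters of the TATA box, the core promoter element that binds the TATA-binding protein, stood in promoters of genes from both sides of the comparison. The 100 bases before the RefSeq start (GRCm38.p6, read 5′ to 3′ on the strand of the gene) are shown for Agt and Fabp1, which were higher in liver, and for Ren1 and Kap, which were lower, so that both partners of the renin axis are seen. They were chosen because they hold the letters near the start; capitals mark TATAAA. The Agt window is chr8:124569707-124569806 (minus strand), the Fabp1 window chr6:71199779-71199878 (plus strand), the Ren1 window chr1:133350574-133350673 (plus strand) and the Kap window chr6:133853668-133853767 (minus strand).
Agt: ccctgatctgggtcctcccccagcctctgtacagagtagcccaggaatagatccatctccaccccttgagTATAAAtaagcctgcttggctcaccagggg
Fabp1: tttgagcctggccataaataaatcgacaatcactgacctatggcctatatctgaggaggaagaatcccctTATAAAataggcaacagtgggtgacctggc
Ren1: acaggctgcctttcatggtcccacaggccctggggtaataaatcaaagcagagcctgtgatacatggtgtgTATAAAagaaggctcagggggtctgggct
Kap: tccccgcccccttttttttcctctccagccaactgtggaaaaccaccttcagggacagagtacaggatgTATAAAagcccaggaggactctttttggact
The first capital stands 30 bases before the start in Agt and Fabp1, 29 in Ren1 and 31 in Kap. Within 250 bases before the start, TATAAA or, on the other strand, TTTATA was found in 14.3% of 27025 genes with a promoter, in 12.1% of the genes higher in liver, 10.6% of the lower ones and 6.45% of the similar ones. It was found in 4 of 19 plasma protein promoters, 5 of 17 promoters of loop of Henle to collecting duct transporters, 2 of 29 proximal tubule transporter promoters and 0 of 17 oxidative phosphorylation promoters. A match describes letters and is not a measured site.

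Of 150 tested innate immune genes in 8 lists, 93 were higher, 19 lower and 14 similar. Complement, the proteolytic cascade of plasma, was higher for 25 of 27 tested genes and similar for 2, with a median of 4.08. Of its 31 genes, 4 were too low to test. C3, its central component, had 6104, 6813 and 7836 CPM in livers, against 8.06, 13.5 and 34.2 CPM in kidneys (log2 fold change 8.80, SE 0.38, adjusted p = 1.58e-12). C8b, part of the membrane attack complex, had 424, 674 and 984 CPM in livers and 2 counts in kidneys, a liver to kidney ratio of 9540, counting interval 2640 to 78800. Masp2, the protease of the lectin pathway, had 307 to 461 CPM in livers and 2 counts in kidneys, and Mbl1, a mannose-binding lectin, 457 to 852 CPM in livers, against 0 to 0.893 CPM in kidneys. Cfi, which inactivates C3b, differed by 7.72 (SE 0.26). The similar genes were Cd59a and Cr1l, membrane regulators that protect a cell from its own complement. Cd59a had 80.9, 118 and 194 CPM in livers and 77.4, 96.6 and 124 CPM in kidneys (log2 interval -0.10 to 0.67), and Cr1l 74.8, 87.8 and 132 CPM in livers and 72.7, 85.8 and 118 CPM in kidneys (log2 interval -0.21 to 0.47). Among the complement genes that were not tested, C7 was lower in liver in every animal with both tissues (log2 differences -4.2 to -2.56). Without the liver of animal 12, or without that of animal 13, 28 complement genes were tested and 1 was lower in liver.

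All 17 tested acute phase genes were higher in liver, with a median of 8.97. Apcs, serum amyloid P, had 726, 1003 and 2461 CPM in livers, against 0, 0 and 2.03 CPM in kidneys (log2 fold change 11.32, SE 0.63). Itih3 and Itih4, hyaluronan-binding inhibitor chains, and Serpina3n, a protease inhibitor, differed by 11.11 (SE 0.66), 12.04 (SE 0.72) and 8.96 (SE 0.56). Lcn2, which binds bacterial siderophores and marks injured tubules, had 30.1, 88.2 and 347 CPM in livers, against 0.724, 6.57 and 27.5 CPM in kidneys (log2 fold change 3.68, SE 0.65). Summed over 20 genes, the list held 18082 to 24932 CPM in livers and 218 to 616 CPM in kidneys. Pglyrp2, which degrades bacterial peptidoglycan in plasma, had 129, 182 and 212 CPM in livers and 2 counts in kidneys, a liver to kidney ratio of 2350, counting interval 650 to 19400.

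Class I of the MHC (major histocompatibility complex) presents peptides from inside a cell, and 12 of 13 genes were higher in liver, with a median of 2.08. H2-K1, a classical heavy chain, had 1328, 1960.3 and 2769.7 CPM in livers, against 183, 249.99 and 446 CPM in kidneys (log2 fold change 2.90, SE 0.24, adjusted p = 7.96e-09). B2m, the light chain, had 1821, 2342 and 3962 CPM in livers, against 351, 462 and 681 CPM in kidneys (log2 fold change 2.28, SE 0.24). H2-Q10, a secreted class I protein of liver, had 2477 to 5754 CPM in livers, against 0 to 14.9 CPM in kidneys, and H2-T23 differed by 2.08 (SE 0.22). Heavy chain genes are near-identical, so that values of single ones are uncertain.

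Class II presents peptides taken up from outside, and 5 of 6 tested genes were lower in liver, with a median of -1.74. Cd74, the invariant chain, had 17.1, 38.8 and 132 CPM in livers, against 103, 154 and 291 CPM in kidneys (log2 fold change -1.66, SE 0.39, adjusted p = 0.00166). H2-Aa, H2-Ab1 and H2-Eb1, the chains of class II molecules, differed by -1.81 (SE 0.38), -1.81 (SE 0.45) and -1.93 (SE 0.40). The groups overlapped for each of these 4 genes. Summed over 7 genes, livers held 49.7 to 374.9 CPM, the highest in animal 12, and kidneys 281 to 806 CPM. Without the liver of animal 12, 6 class II genes were lower, with a median of -2.12.

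Marker genes of immune cells are given beside these lists. Kupffer cell markers (7 genes) summed to 697 to 1077 CPM in livers and 82.9 to 161 CPM in kidneys, with 6 of 6 tested higher. Clec4f, a lectin of Kupffer cells, had 159 to 331 CPM in livers, against 0 to 6.44 CPM in kidneys, and Vsig4 and Marco, a complement receptor and a scavenger receptor, had 36.1 to 127 and 28.3 to 82.6 CPM in livers, against 0 to 0.362 and 0 to 1.01 CPM in kidneys. Markers of macrophages and monocytes (9 genes) summed to 227 to 513 CPM in livers and 85.0 to 192 CPM in kidneys, with 5 of 5 tested higher (2 on library totals alone). The other 4 were too low to test. Ccr2 and Cx3cr1, genes of monocytes and macrophages, went both ways within animals, with log2 differences of -0.81 to 1.62 and -3.06 to 2.70. Neutrophil markers (9 genes) summed to 37.2 to 226 CPM in livers and 5.21 to 64.9 CPM in kidneys, with Mpo at 0 in every kidney and 7 of the 9 too low to test. Lymphocyte markers (10 genes) summed to 15.7 to 39.5 CPM in livers and 5.61 to 25.1 CPM in kidneys, with 9 of the 10 too low to test. The part of these cells in the immune gene differences was not tested.

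Of 33 tested interferon-stimulated genes, 16 were higher, 4 lower and 13 undecided, with a median of 0.94. The split was 13 higher, 5 lower and 3 similar with the animal as a block, 14, 6 and 3 without the liver of animal 12, and 8, 7 and 5 on library totals alone. Ifitm3, which blocks entry of enveloped viruses, had 1372, 1702 and 2329.7 CPM in livers, against 168, 255 and 409 CPM in kidneys (log2 fold change 2.72, SE 0.23, adjusted p = 1.27e-08). Bst2, tetherin, which holds virions at the cell surface, had 115, 284 and 581 CPM in livers, against 19.7, 38.7 and 85.6 CPM in kidneys (log2 fold change 2.82, SE 0.34). Dtx3l, a ubiquitin ligase, and Stat2, a transcription factor of the interferon response, differed by 3.13 (SE 0.30) and 2.08 (SE 0.23). Every liver was above every kidney for these 4 genes.

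The 4 lower interferon-stimulated genes were Samd9l, Rsad2, Cmpk2 and Phf11d. Rsad2, viperin, which makes a chain-terminating nucleotide, had 52.0, 62.6 and 104 CPM in livers, against 124, 171 and 205 CPM in kidneys (log2 fold change -1.30, SE 0.18, adjusted p = 8.56e-06). Samd9l, a translation inhibitor, had 14.4, 18.2 and 61.4 CPM in livers, against 58.5, 160.0 and 203 CPM in kidneys (log2 fold change -2.52, SE 0.33, adjusted p = 3.37e-06). Kidneys were above livers throughout for Rsad2, and overlapped with them for Samd9l. Cmpk2, a mitochondrial nucleotide kinase that neighbours Rsad2 in the genome, had 1.71, 10.4 and 47.5 CPM in livers, against 15.8, 39.8 and 59.7 CPM in kidneys (adjusted p = 0.0366), a call lost in 10 of 27 alternative settings, in 9 of them by leaving out 1 library. Phf11d differed by -1.18 (SE 0.35).

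The liver of animal 12 was the highest in several interferon-stimulated genes. Summed over 38 genes it held 5259 CPM, where the other livers held 2715 to 3903 CPM and the kidneys 1131 to 1971 CPM. Isg15, a ubiquitin-like protein, had 21.1, 30.3 and 130.1 CPM in livers, against 11.4, 17.2 and 35.2 CPM in kidneys (log2 fold change 1.36, SE 0.39, adjusted p = 0.00828). Its call was lost without that liver and in 5 other of 27 settings, among them the 6 animals with both tissues, with the animal as a block (log2 fold change 0.784, adjusted p = 0.00345) and without (log2 fold change 0.802, adjusted p = 0.0349). Zbp1, a sensor that binds Z-form RNA as the p150 isoform does, had 9.08, 38.9 and 187 CPM in livers, against 0, 3.57 and 11.3 CPM in kidneys (log2 fold change 3.60, SE 0.70, adjusted p = 3.01e-04). The highest value of each gene was that of the liver of animal 12. Irf7 and Ifit1, a transcription factor and an RNA-binding protein of the response, were undecided (log2 intervals -0.03 to 1.5 and -0.28 to 1.30).

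Sensors of nucleic acid and microbes were higher in liver for 10 of 24 tested genes, lower for 1 and similar for 7 (6, 1 and 6 on library totals alone). The share of similar sensors was near the 29.7% of all genes tested. Adar, the gene that carries the P195A change, was similar, with 8.00, 13.7 and 25.2 CPM in livers, against 7.44, 12.5 and 33.4 CPM in kidneys (log2 fold change 0.11, interval -0.63 to 0.85). These counts sum over isoforms, so p150 was not measured apart from the shorter p110. Irf3, Casp8 and Ripk1, the transcription factor, protease and kinase that act below several sensors, were similar (log2 intervals 0.03 to 0.75, -0.08 to 0.81 and 0.08 to 0.91). Ikbke, a kinase of the same route, was higher in liver (4.32, SE 0.42), as were Trim25, a cofactor of RIG-I (1.30, SE 0.24; not called on library totals alone), and Nlrp6, an inflammasome protein (1.85, SE 0.33). Mavs, the mitochondrial adaptor of RIG-I, was undecided (log2 interval 0.20 to 1.26). Tlr3, an endosomal receptor of double-stranded RNA, was called lower, at 2.63 to 9.19 CPM in livers, against 3.38 to 19.3 CPM in kidneys (log2 fold change -1.06, SE 0.40, adjusted p = 0.0393), a call lost in 16 of 26 alternative settings, among them the 6 animals with both tissues, with the animal as a block (log2 fold change -0.978, adjusted p = 0.0574) and without (log2 fold change -0.918, adjusted p = 0.0571).

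Of 17 tested genes of interferon and interleukin 6 receptors and signalling, 8 were higher, 2 lower and 5 similar (4, 2 and 1 on library totals alone). Here too the similar share was near the 29.7% of all genes tested. Il6ra, the receptor that binds interleukin 6, had 13.1, 43.4 and 54.3 CPM in livers, against 0, 1.56 and 2.17 CPM in kidneys (log2 fold change 4.75, SE 0.41, adjusted p = 1.20e-08), while its signalling partner Il6st was similar at 51.9, 60.5 and 86.1 CPM in livers and 11.1, 54.1 and 80.3 CPM in kidneys (log2 interval -0.31 to 0.86). Il1rap, the accessory chain of the interleukin 1 receptor, had 233 to 452 CPM in livers, against 3.51 to 10.7 CPM in kidneys (log2 fold change 5.33, SE 0.26). Ifnar2, a chain of the type I interferon receptor, was higher in liver (1.45, SE 0.17), and so was Stat3 (1.61, SE 0.16), though neither was called on library totals alone. Ifngr1 and Jak1 were similar (log2 intervals -0.24 to 0.81 and 0.27 to 0.88). Il10rb, which the interferon lambda receptor shares, and Il33, an alarmin, were lower in liver, by -2.13 (SE 0.24) and -2.95 (SE 0.51) on the log2 scale.

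Of 13 tested epithelial defence genes, 5 were higher and 7 lower in liver. Defb1, a beta-defensin of the urinary tract, had 2.33, 7.57 and 34.3 CPM in livers, against 320.5, 399.6 and 965 CPM in kidneys (log2 fold change -5.21, SE 0.49, adjusted p = 4.38e-08). Umod, uromodulin, which binds uropathogenic bacteria in urine, had 3 counts in livers and 1046 to 2228 CPM in kidneys, a kidney to liver ratio of 8470, counting interval 2900 to 41100. Wfdc15b and Wfdc2, whey acidic protein family members, were lower in liver. Wfdc15b had no count in livers and was at least 1991-fold lower, and Wfdc2 differed by -4.15 (SE 0.28). Pigr, which carries immunoglobulin A into bile, had 104, 239 and 574 CPM in livers, against 5.50, 10.5 and 15.7 CPM in kidneys (log2 fold change 4.52, SE 0.37). Ang and Rnase4, ribonucleases that share a promoter, differed by 7.46 (SE 0.53) and 6.32 (SE 0.53), and Tff3, a mucosal repair peptide, by 7.31 (SE 1.05).

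**Figure D4:**
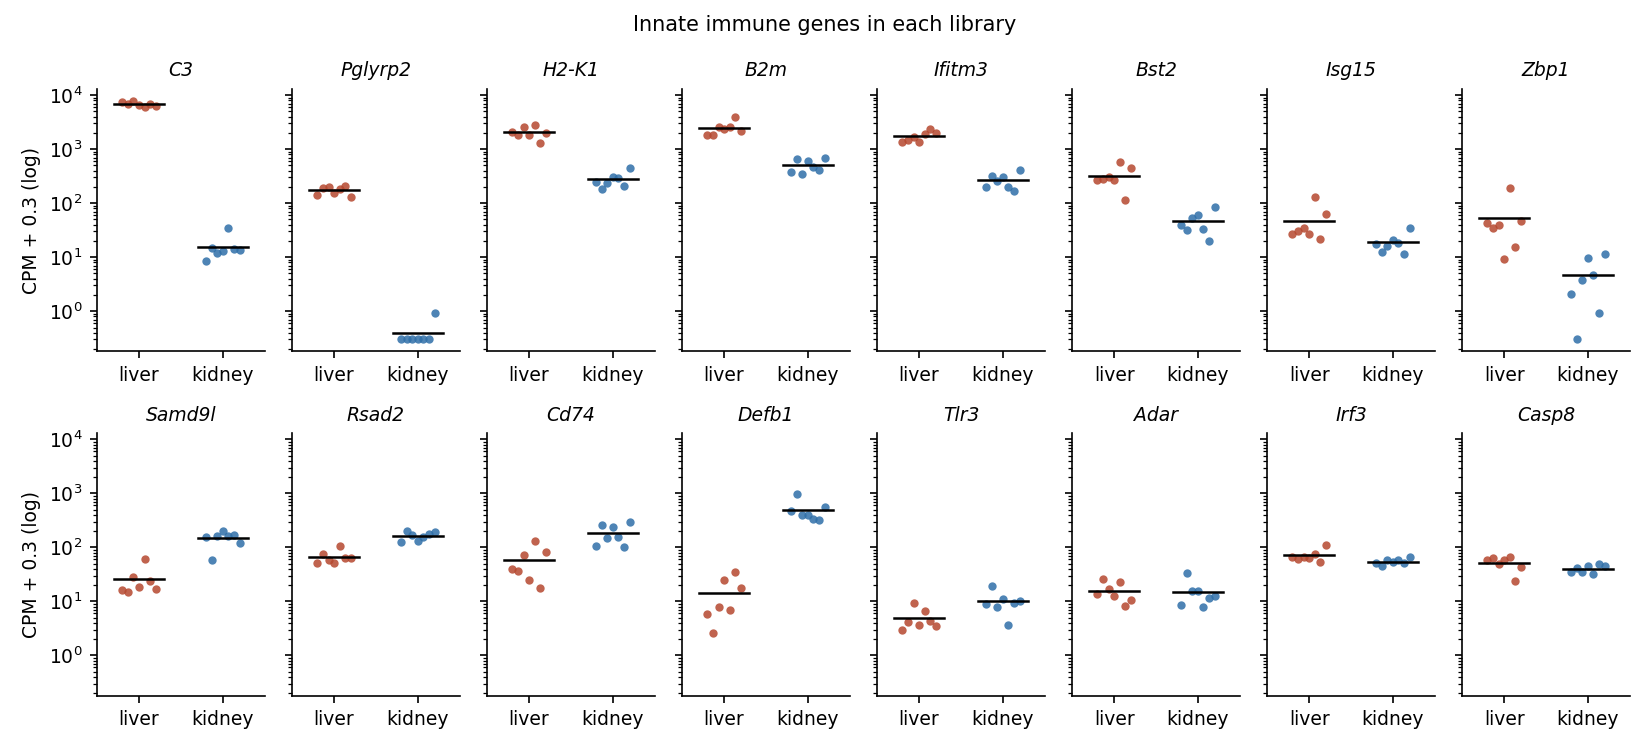
CPM in each library (points; log axis after adding 0.3) and tissue mean (line) for 16 innate immune genes, livers on the left and kidneys on the right of each panel. C3, Pglyrp2, H2-K1, B2m, Ifitm3 and Bst2 lie above the kidneys in every liver, Rsad2 and Defb1 below them, and Adar, Irf3 and Casp8 overlap.

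Markers of other cell types are given for the composition of each tissue. Sinusoidal endothelium of liver was higher for 6 of 6 genes, with Clec4g at 112 to 223 CPM in livers, against 0 to 0.641 CPM in kidneys. General endothelial markers were lower in liver for 5 of 8, among them Emcn (-4.08, SE 0.32) and Plvap (-2.44, SE 0.30), and higher for 1. Of 6 tested genes of cholangiocytes and ductal epithelium, 3 were lower in liver, among them Epcam (-7.67, SE 0.28) and Krt7 (-5.85, SE 0.44), and 2 were higher, the keratins Krt8 (1.93, SE 0.22) and Krt18 (2.95, SE 0.33), which hepatocytes also express. Of 7 tested erythroid genes, 2 were similar and 5 undecided, and 6 were lower on library totals alone. The hemoglobin chain Hbb-bs was at 1308 to 5182 CPM in livers and 1736 to 4461 CPM in kidneys (log2 interval -0.86 to 0.47). Of 10 cell cycle genes, 3 were similar, Mki67 among them (log2 interval -0.89 to 0.61), and 7 were undecided; 1 was higher with the animal as a block or without the kidney of animal 5, and 2 without that kidney and the liver of animal 13.

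The genes that varied most within a tissue are given by animal. The median coefficient of variation was 0.301 over 3393 liver genes and 0.235 over 3095 kidney genes of at least 50 CPM. Hamp, hepcidin, the hormone that closes ferroportin, was at 281 and 766 CPM in the livers of animals 7 and 15 and at 0 to 4.67 CPM in the other 5 livers. Its copy Hamp2 was at 121 and 282 CPM in the same livers. The liver of animal 12 had 332 CPM of Tgtp1 and 467 CPM of BC023105, where the other livers had 0 to 7.65 and 0.571 to 9.90 CPM. In that liver, the interferon-inducible GTPases Iigp1 and Igtp, chosen after their values were seen, stood at 5307 and 869.8 CPM, where the others had 372 to 528 and 35.5 to 94.003 CPM. Cyp2b13, a P450 with sex-dependent expression in the mouse, ran from 1.71 to 299 CPM across livers. In kidneys, Cfd and Car3, genes of fat tissue, ran from 0.362 to 305 and from 3.26 to 179 CPM, and adipocyte markers (6 genes) summed to 0.362 to 420 CPM. In livers the same markers summed to 3.15 to 7.59 CPM, with Plin1, Retn, Cfd and Lep at 0 in all 7. Ptprk and Arf2 had no count in the kidney of animal 5 and 56.6 to 81.6 and 60.7 to 78.3 CPM in the other kidneys.

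**Figure D5:**
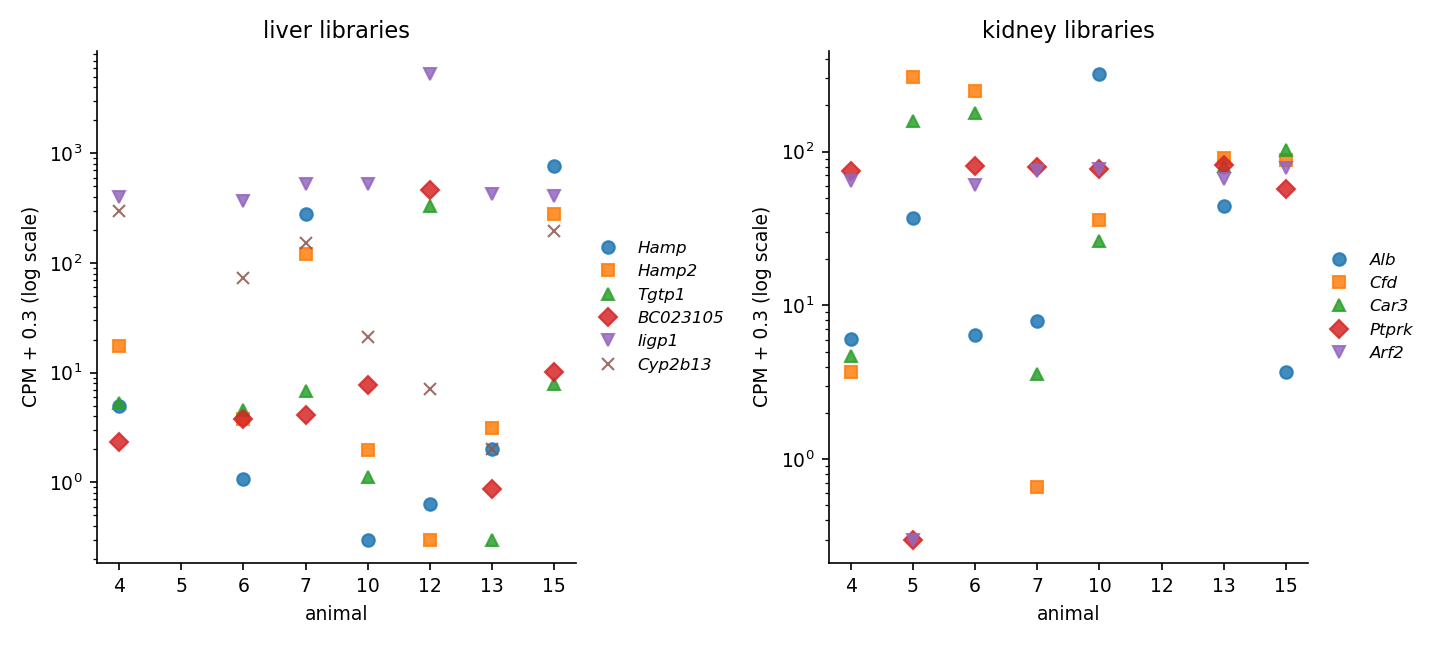
CPM of the genes that varied most among livers (left) and among kidneys (right), by animal, on log axes after adding 0.3; a gap marks an animal with no library of that tissue here. Hamp and Hamp2 are high in livers 7 and 15, Tgtp1, BC023105 and Iigp1 in liver 12, and Alb in kidney 10.

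The same contrast was made in p150-negative animals, with 7 livers and 5 kidneys, which share no library with those above. A liver of animal 2 and the kidneys of animals 2 and 11 were left out there, since their identity genes went against their label. Of 11247 genes tested there, 1835 (16.3%) were higher and 1497 (13.3%) lower in liver. Called in both genotypes were 1313 higher genes, 74.0% of those in p150-positive and 71.6% of those in p150-negative animals, and 1133 lower genes, 56.5% and 75.7%. Opposite calls were made for 8 genes, named because they are so few: Stard4, Slco2b1, Nsdhl, Nrep and Hmgcs1 were higher in p150-positive livers and lower in p150-negative livers than in kidneys, and Tmem86a, Cidec and Dnajc12 the reverse. Stard4, Nsdhl and Hmgcs1 act in cholesterol synthesis and transport. For Hmgcs1 the log2 fold change was 1.21 (SE 0.32) in p150-positive and -2.30 (SE 0.33) in p150-negative animals, and for Nsdhl 1.69 (SE 0.24) and -1.90 (SE 0.40). In 1 fit over the 4 groups, the difference in log2 fold change between p150-positive and p150-negative animals had an adjusted p under 0.05 for each of the 8 genes, against 1.51% of the 12970 genes tested. It was 3.47 (SE 0.48, adjusted p = 4.46e-05) for Hmgcs1, 3.54 (SE 0.44, adjusted p = 1.61e-05) for Nsdhl and -4.36 (SE 0.35, adjusted p = 2.16e-09) for Dnajc12, a co-chaperone. These p-values are adjusted over all genes tested, and the 8 genes were picked for opposite calls in the same libraries. That choice favours a low p, so all 8 passing beside 1.51% of genes shows no excess. Among the 8, the call of Cidec, a lipid droplet protein of adipocytes, was lost in p150-positive animals without the kidney of animal 5 (log2 fold change -1.64, adjusted p = 0.0729), with the animal as a block (log2 fold change -0.62, adjusted p = 0.589) and without both libraries that stood apart (log2 fold change -1.62, adjusted p = 0.0824). Its liver minus kidney difference within animals ran from -3.62 to 3.42 on the log2 scale. The adipocyte markers, of which Cidec is 1, summed to 3.15 to 7.59 CPM in those livers and 0.362 to 420 CPM in those kidneys, and their part in the call was not tested. The call of Tmem86a was lost in 10 of 27 alternative settings, that of Nrep without the liver of animal 4 (log2 fold change 0.967, adjusted p = 0.00194), and those of Stard4, Slco2b1, Nsdhl, Nrep and Hmgcs1 on library totals alone.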

How the data were processed

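Per the labels' protocols, Nextera XT libraries were made from TRIzol-extracted, DNase-treated total RNA of frozen tissue. The deposited values are raw read counts per gene, 1 column per library. The submitters' processing notes name FastQC 0.11.3, SAMtools 1.2, Picard 1.134, HTSeq 0.4.1 and STAR 2.4.2a, with the build GRCm38 (mm10). The strand setting and annotation release are not given in the sources used here, so overlapping, antisense and near-identical genes are uncertain. Of 53471 entries, 6 identifiers stood again with identical counts and were used once; entries without a symbol held 0.267% of counts.

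Counts were tested with edgeR 4.0.16 in R 4.3.3 (quasi-likelihood, TMM, filterByExpr by tissue at 10 or more counts, total 15 or more), 7 livers against 7 kidneys, with Benjamini-Hochberg adjustment over all genes tested. Standard errors and 95% intervals come from the quasi-likelihood F statistic. Alternatives were the animal as a block, other scalings, DESeq2 1.42.0, limma 3.58.1 (voom), other filters and thresholds, and each library left out; leaving out both libraries that stood apart, and the test of the difference between p150-positive and p150-negative animals, were added after seeing the data. Libraries of the same number come from 1 animal by the labels, and deviations from the tissue mean correlated at 0.111 to 0.176 between the liver and kidney of each of the 6 animals with both. The kidney that correlated best with a liver was that of the same animal, except for animal 13 (0.122 with its own kidney). Genes at 0 in a tissue were set against a floor of 3 counts over the group, and ratios of genes with 1 to 3 counts carry a 95% counting interval. Positions are from GENCODE M21 and promoters from RefSeq.

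Named genes are, per direction, the 15 with the highest mean CPM among calls with a log2 fold change of at least 3 in size that went the same way in all 6 animals (without predicted, mitochondrial and sex-linked genes), up to 4 members per direction of each list discussed with the smallest adjusted p, up to 3 similar members, 22 related pairs, Adar, and the 5 most variable genes per tissue. Genes whose call depends on a setting are also named. Members and lists were chosen with earlier results of these data known. Some genes that meet these rules are not reported here. The script was tested on simulated data.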

Additional observations from a re-analysis of the deposited data

Results flagged for a closer look

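Values of 1 library that lay far from the other 6 of its tissue, by Dixon's ratio (gap to the nearest library over the range, past its 95% critical value), were found in 61 of 396 gene and tissue groups with a mean of at least 10 CPM, 11 of which had been picked for their spread. For independent, normally distributed values chance gives about 1 in 20 groups. That rate need not hold for CPM, and groups that share a library are not independent, so an excess over chance cannot be read from this count. Most lay in 4 libraries, the liver of animal 13 with 16, the kidney of animal 5 with 13, the liver of animal 12 with 12 and the kidney of animal 10 with 6. Values are given first for the library and then for the other 6 libraries of the tissue; the cause was not tested.

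The liver of animal 13 was high for secreted and other proteins, with Ang at 1734 CPM beside 285 to 648, Apcs at 2461 CPM beside 726 to 1406, Apoa2 at 16134 CPM beside 5479.8 to 8689, B2m at 3962 CPM beside 1821 to 2591, Bhmt at 3162 CPM beside 731 to 1591, Glyat at 876 CPM beside 480.0 to 624, Hbb-bs at 5182 CPM beside 1308 to 2941, Igf1 at 3392 CPM beside 1239 to 1629.6, Masp2 at 461 CPM beside 307 to 356, Slc17a3 at 139.9 CPM beside 92.4 to 113, Tff3 at 487 CPM beside 12.5 to 97.4 and Ttr at 15188 CPM beside 5158 to 8151. It was low for Acsm1 at 415 CPM beside 860.0 to 1108, Atp5a1 at 1273 CPM beside 1928 to 2278, Cfi at 1209 CPM beside 1424 to 1583 and H2-Q10 at 2477 CPM beside 4618 to 5754.

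The liver of animal 12 was high for interferon-inducible and a few metabolic genes, with BC023105 at 467 CPM beside 0.571 to 9.90, Cmpk2 at 47.5 CPM beside 1.71 to 19.8, Cyp2r1 at 61.0 CPM beside 28.8 to 40.0, H2-Eb1 at 40.1 CPM beside 3.43 to 18.4, Igtp at 869.8 CPM beside 35.5 to 94.003, Iigp1 at 5307 CPM beside 372 to 528, Isg15 at 130.1 CPM beside 21.1 to 63.0, Me1 at 293 CPM beside 55.8 to 156, Samd9l at 61.4 CPM beside 14.4 to 27.6, Slc16a1 at 273 CPM beside 102 to 171, Tgtp1 at 332 CPM beside 0 to 7.65 and Zbp1 at 187 CPM beside 9.08 to 45.9.

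The liver of animal 15 was high for Gc at 13869.9 CPM beside 9993 to 11639, Hamp at 766 CPM beside 0 to 281, Hamp2 at 282 CPM beside 0 to 121 and Irf3 at 110.3 CPM beside 54.3 to 74.5, and low for Slc10a1 at 1155 CPM beside 1513 to 1728. Single genes were high in other livers: G6pc at 1142 CPM beside 260.1 to 630.0 in animal 6 and Pigr at 574 CPM beside 104 to 293 in animal 7.

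The kidney of animal 5, the library with the fewest counts, was high for Adar at 33.4 CPM beside 7.44 to 15.2, Cr1l at 118 CPM beside 72.7 to 88.4, Defb1 at 965 CPM beside 320.5 to 569.6, Fxyd2 at 3696 CPM beside 2022 to 2519, Nat8 at 59.1 CPM beside 2.68 to 17.7, Slc51b at 76.1 CPM beside 30.0 to 49.7, Srebf2 at 114 CPM beside 34.0 to 54.7 and Wfdc2 at 357 CPM beside 189.7 to 219. It was low for Arf2 at 0 CPM beside 60.7 to 78.3, Gys1 at 4.68 CPM beside 30.6 to 49.1, Kcnj1 at 181 CPM beside 479 to 699.7, Mavs at 26.3 CPM beside 85.5 to 118 and Ptprk at 0 CPM beside 56.6 to 81.6.

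The kidney of animal 10 was high for genes that liver expresses, with Ahsg at 80.8 CPM beside 0 to 28.7, Alb at 319.6 CPM beside 3.36 to 44.2, Apoa1 at 78.5 CPM beside 1.56 to 22.6, C3 at 34.2 CPM beside 8.06 to 14.6, Fabp1 at 36.2 CPM beside 0.520 to 12.8 and Serpina3k at 61.9 CPM beside 0 to 6.09. The kidney of animal 13 was high for Cyp4a10 at 1315 CPM beside 480.0 to 819, Cyp4b1 at 252 CPM beside 34.5 to 82.5 and Hpd at 173 CPM beside 20.2 to 84.5, that of animal 15 for H2-Eb1 at 119 CPM beside 36.4 to 71.3, Igf1 at 77.3 CPM beside 28.7 to 42.7 and Isg15 at 35.2 CPM beside 11.4 to 21.0, and that of animal 7 for Ugt3a1 at 84.0 CPM beside 35.9 to 52.4.

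The kidney library of animal 12, used only in an alternative setting, held 16520 CPM of 8 small intestine genes and 16310 CPM of 8 exocrine pancreas genes. The 7 kidneys compared held 3.53 to 39.8 and 0 to 66.0 CPM. Values of animal 12 are on its total counts, and those of the 7 kidneys on scaled library sizes.

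Liver over kidney differed between p150-positive and p150-negative animals, on the log2 scale, by 2.76 for Stard4, 2.66 for Slco2b1, 3.54 for Nsdhl, 3.49 for Nrep, 3.47 for Hmgcs1, -2.62 for Tmem86a, -8.19 for Cidec and -4.36 for Dnajc12 (edgeR's quasi-likelihood test of the difference, adjusted p at most 0.0167 in each; genes picked for opposite calls). In p150-positive animals the call of Cidec was lost without the kidney of animal 5 and with the animal as a block, and that of Tmem86a in 10 of 27 settings.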

How the results depend on the processing

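Library totals alone gave 1002 genes higher, 4527 lower and 1828 similar. Lists mostly higher in liver also held fewer higher genes then, with 7 of 9 in the urea cycle, 23 of 27 in complement, 16 of 17 in acute phase and 10 of 13 in MHC class I. A test against the fold threshold itself left 1320 genes lower, no expression filter gave 3511 lower, a stricter filter 1218 lower, a log2 minimum of 2 gave 940 higher and 1138 lower, and an interval within 1.5 times left 719 similar. Leaving out each library in turn gave 1700 to 1913 higher, 1931 to 2402 lower and 3057 to 3899 similar genes. Over the gene lists, 138 of 1809 counts moved by more than 1.5 times. Named genes kept a higher or lower call, or the lack of both, in 6816 of 6968 comparisons, with 106 such calls lost and 44 gained. Moves between similar and undecided count as no change there, so these numbers do not cover how stable the similar genes were. Pigr and Tff3 reversed with the left-out kidney library of animal 12 included, at log2 fold changes of -0.10 and -1.43 (adjusted p = 0.962 and 0.565); that library held 16520 CPM of intestine genes. The cause of the other changes was not tested.

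With the animal as a block on 6 pairs, 1764 genes were higher, 2433 lower and 3869 similar, of which 1639 and 1915 were shared with the calls above; the same 6 pairs without a block gave 1854, 2338 and 3803. The block alone changed the calls of Pck2, Pygb and Hmgcs1; those of Pck1, Cyp4b1, Isg15, Tlr3 and Cidec changed in these animals with and without it, and that of Tmem86a without it. DESeq2 gave 1803, 2116 and 3622, limma's voom 1752, 2081 and 3382.

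Depth limits the low genes. At 1298927 counts a gene at 10 CPM rests on few reads, and genes with 0 counts in a tissue have bounds only. p-values measure the spread between these animals of 1 strain and age. Counting intervals cover counting error alone.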
